A study of Homo sapiens with 6 samples.

Results

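Translation elongation factor genes and other mRNAs of the terminal oligopyrimidine (TOP) class were followed as 9 genes, EEF1A1, EEF1B2, EEF1D, EEF1G, EEF2, TPT1, PABPC1, EIF3E and EIF4B. They were found by symbol among the 23698 gene rows, and each symbol had 1 row. The libraries came from MV4-11, an established acute myeloid leukaemia line with an internal tandem duplication of the receptor kinase gene FLT3. All cells had been stably transduced with a lentivirus, which carried a short hairpin RNA against the arginine methyltransferase gene PRMT5 in the 3 knockdown libraries and a scrambled sequence in the 3 control libraries. The cells were grown in Iscove's medium with fetal bovine serum, and the labels give no time after transduction, no number of hairpins and no word on clones. Poly(A) RNA-seq measured the genes as estimated counts per gene. EEF1A1 was chosen by its share of the counts in each of these libraries, so its values are given as a description with no test. The other 8 were listed for their roles in translation, but with earlier results of these data known.

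During translation, eEF1A carries aminoacyl-tRNA to the ribosome as a GTPase, and eEF2 moves the ribosome along by 1 codon. The eEF1B complex, made of the products of EEF1B2, EEF1D and EEF1G, recharges eEF1A with GTP. TOP mRNAs begin with a cytidine followed by a run of pyrimidines, and through that start the kinase complex mTORC1 and the RNA-binding protein LARP1 set how much of them is translated. Ribosomal protein mRNAs are the largest group of this class, and growing cells spend much of their mRNA on it.

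The class is named for the first bases of its mRNAs, so the starts are shown here. Windows of 30 bases, 10 before and 20 from the annotated start, are given for the members with an entry in the RefSeq start table (build GRCh38.p14), 5′ to 3′ on the transcribed strand. Capitals mark a C at the start and the C or T bases that follow it without a break, where at least 4 follow. For EEF1B2 the table holds an upstream and a downstream start.
EEF1A1, chr6:73521013-73521042, minus strand: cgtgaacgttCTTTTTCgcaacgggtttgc
EEF2, chr19:3985444-3985473, minus strand: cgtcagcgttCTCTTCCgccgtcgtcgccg
TPT1, chr13:45341164-45341193, minus strand: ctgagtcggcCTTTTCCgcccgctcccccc
EIF4B, chr12:53006446-53006475, plus strand: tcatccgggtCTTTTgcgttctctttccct
EEF1B2 downstream start, chr2:206159885-206159914, plus strand: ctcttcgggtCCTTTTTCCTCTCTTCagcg
EEF1B2 upstream start, chr2:206159599-206159628, plus strand: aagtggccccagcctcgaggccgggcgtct
EEF1G, chr11:62573872-62573901, minus strand: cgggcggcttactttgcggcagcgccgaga

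A tract stood exactly at the start in 5 of these 7 windows. They come from 6 genes, and EEF1D, PABPC1 and EIF3E had no window. The members were listed with the TOP class, which this tract defines, so the count is a description and tests nothing. It did so in 4.07% of 35093 RefSeq windows of the same length, in 5.36% of the windows of tested genes and in 49 of 87 windows of cytosolic ribosomal protein genes. On the opposite strand the same letters stood at the start in 2.07% of all windows and in 0 of the 7. The longest tract, 16 bases, belonged to the downstream start of EEF1B2, and the shortest, 5 bases, to EIF4B. In EEF1G and at the upstream start of EEF1B2 these letters are not within 5 bases of the annotated start. These are matches to annotated starts, and the libraries do not show which start was used.

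The libraries held 16408484 to 19077106 counts, and 13668 genes entered the comparison. PRMT5, the targeted gene, was at 103, 71.6 and 53.0 CPM (read counts scaled to library size with TMM factors) in knockdown 1 to 3 and at 133 and 158 CPM in controls 1 and 3. The library labelled scrambled control 2 was at 53.2 CPM, within the range of the knockdown libraries and against its label. Across genes its log2 CPM correlated with the other 5 libraries at 0.876 to 0.923, while those 5 correlated with one another at 0.952 to 0.995. The log2 differences of the members and of genes named from the translation gene lists are therefore given with and without it. PRMT5 itself had a log2 difference, knockdown minus control, of −0.60 (SE 0.43, 95% confidence interval −1.60 to 0.41), and −0.94 without that library. In neither setting did PRMT5 pass the edgeR test (edgeR adjusted p = 0.926 with all 6 libraries). All 10 myeloid leukaemia markers, FLT3, HOXA9 and CD33 among them, reached 10 CPM, here before TMM scaling, in at least 1 library. Of 12 genes listed as markers of other cell types, 2 did, KRT18 at 11.6 to 21.6 CPM and PECAM1 at 18.1 to 77.1 CPM. CD3E, HBB and EPCAM were at 0 in every library. The summed level of those 12 markers, also before TMM scaling, was 82.2 to 91.2 CPM in the knockdown and 44.7 to 96.2 CPM in the control libraries, and their part in the results was not tested. Against controls 1 and 3, the library labelled scrambled control 2 was higher for 5 of the 10 myeloid markers and lower for the other 5. It had the highest MEIS1 of the 6 libraries, at 102 CPM, and the lowest LYZ, at 35.3 CPM.

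EEF1A1, which encodes the main form of eEF1A, had more counts than any other gene in all 6 libraries. It took 2.02%, 2.86% and 1.896% of the counts in knockdown 1 to 3. In controls 1 and 3 it took 2.19% and 1.892%, and in the library labelled scrambled control 2 it took 3.50%. In bulk RNA of this kind, fewer cells that express a gene and less of its RNA per cell cannot be told apart. The groups overlapped fully, the highest and the lowest share both being in control libraries. The 95% exact binomial interval of the highest share was 3.49% to 3.51%, and counting error was at most 0.335% of the share in any library. The labels name no molecular identifiers, so reads may be copies of 1 molecule and such intervals cover counting error only. The share of the cytosolic ribosomal protein genes was 8.62%, 10.8% and 7.61% in knockdown 1 to 3, 9.28% and 7.53% in controls 1 and 3, and 13.9% in the library labelled scrambled control 2. The 6 libraries thus stood in the same order for both shares.

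**Figure D1:**
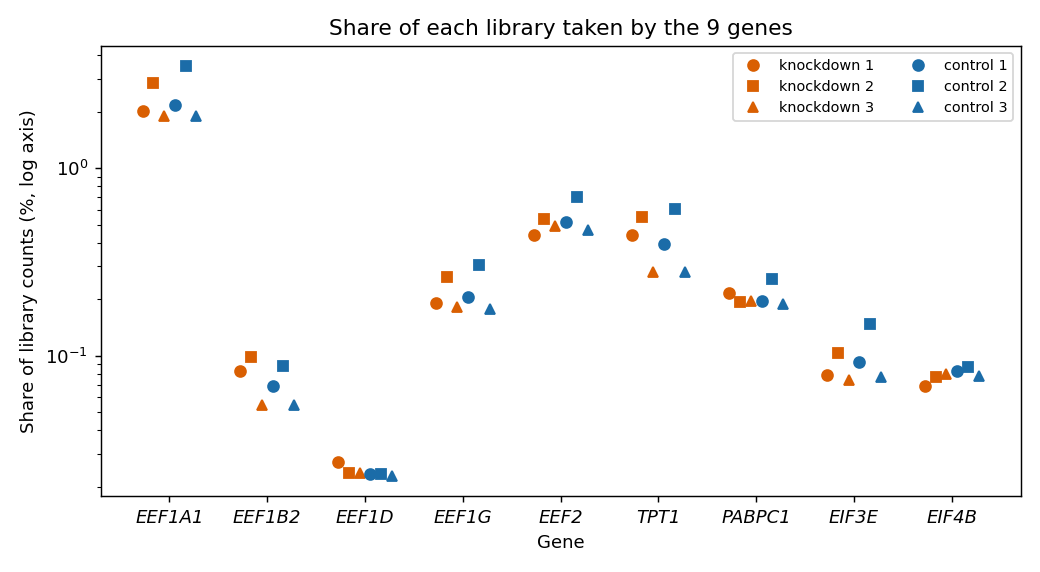
Share of each library's counts (percent, log axis) taken by each of the 9 genes, with 1 point per library; orange marks knockdown, blue control, and circles, squares and triangles the replicate numbers 1 to 3. The blue squares, from the library labelled scrambled control 2, are the highest points for EEF1A1 (3.50%), EEF1G, EEF2, TPT1, PABPC1, EIF3E and EIF4B, but not for EEF1B2 or EEF1D.

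Together the 9 genes took 3.56%, 4.70% and 3.27% of the counts in knockdown 1 to 3, and 3.77%, 5.71% and 3.24% in the libraries labelled control 1 to 3. The mean was 3.85% ± 0.756 (SD, n = 3) in the knockdown and 4.24% ± 1.30 (SD, n = 3) in the control group, a difference of −0.391 percentage points, smaller than either SD. Leaving out the library labelled scrambled control 2 gave a difference of 0.345 percentage points, in the other direction. EEF1A1 supplied most of the sum. The other 8 genes took 1.34% to 1.84% in 5 libraries and 2.21% in the library labelled scrambled control 2.

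Levels of different genes were set side by side as CPM per kb of coding sequence (GENCODE v29 principal transcripts). The order of the means over the 6 libraries was EEF1A1, TPT1, EEF2, EEF1G, EEF1B2, PABPC1, EIF3E, EIF4B and EEF1D. EEF1A1 was at 17535 ± 6111 CPM per kb (SD, n = 6), TPT1 at 8360 ± 3198 and EEF2 at 2060 ± 524. EEF1G was at 1705 ± 521, EEF1B2 at 1117 ± 319 and PABPC1 at 1100 ± 216 CPM per kb of coding sequence. EIF3E was at 728 ± 270, EIF4B at 432 ± 56.6 and EEF1D at 124 ± 10.9 CPM per kb. The ranges over libraries did not overlap between TPT1 and EEF2 or between EIF4B and EEF1D, and every other pair of neighbours overlapped. Within single libraries, all neighbours kept this order in all 6, except EEF1B2 and PABPC1. Those were at 1460 and 1015 CPM per kb in knockdown 2, and at 777 and 989 in knockdown 3. Per kb of the longest principal transcript, TPT1 moved from place 2 to place 4, because that transcript is annotated with 4735 bases around a coding sequence of 516 bases. Thus TPT1's place depends on the length used, while EEF1A1 was first and EEF1D last with both. EEF1D was taken with 1941 coding bases, the longest of its principal transcripts, and shorter forms were not tried.

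None of the 8 members other than EEF1A1 passed the test of knockdown against control (edgeR quasi-likelihood, Benjamini-Hochberg adjusted over all genes, threshold 0.05; adjusted p 0.926 to 0.975). Over all genes the share called was 0%, from 0 of 13668, and 242 genes (1.77%) had an unadjusted p under 0.05, none of them among the 8. With DESeq2 the number called was 0 and 461 genes had an unadjusted p below the threshold, and with limma-voom these numbers were 0 and 117. Of the 9 members, 7 had a log2 difference below 0, knockdown minus control, against 50.1% of all tested genes. The members' median was −0.19 and that of all tested genes −0.0007. When the library labelled scrambled control 2 was left out, only EIF4B, 1 of the 9, was below 0, against 49.6% of all genes, and the median was 0.14. For none of the 9 were the groups apart, against 6.24% of all genes, 3.14% with the knockdown libraries higher and 3.1% with them lower.

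**Figure D2:**
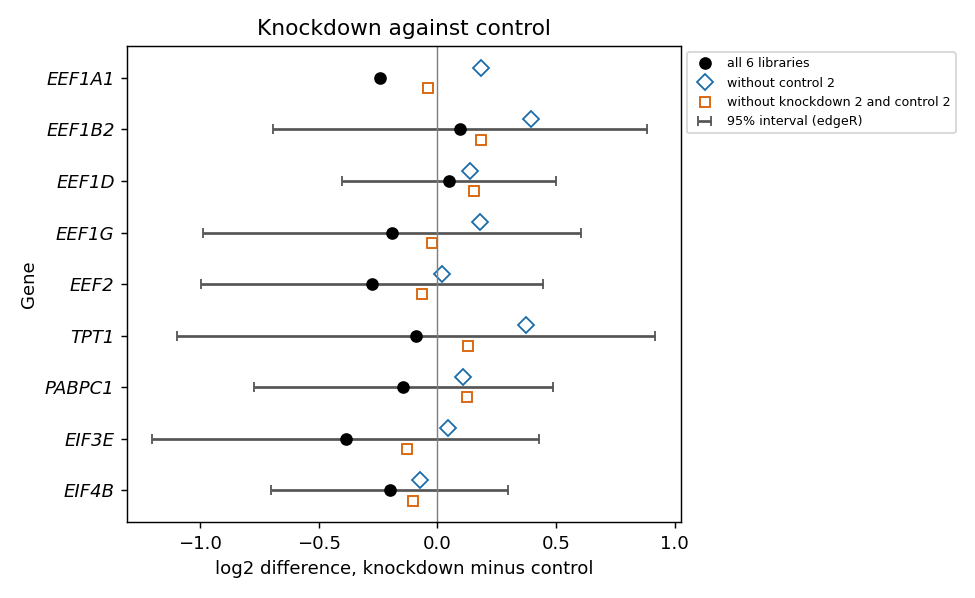
Log2 difference of each gene, knockdown minus control, with all 6 libraries (black, with the 95% interval of the edgeR fit, which is left out for EEF1A1), without the library labelled scrambled control 2 (diamonds) and without both libraries numbered 2 (squares). Every interval shown spans 0, and leaving out the library labelled scrambled control 2 moves all 9 values to the right.

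Among the elongation factors, EEF1A1 was at 20081, 28505 and 18181 CPM in knockdown 1 to 3 and at 21131, 39737 and 18186 CPM in those labelled control 1 to 3. The fitted log2 difference was −0.24, and leaving out the library labelled scrambled control 2 made it 0.18. The library labelled scrambled control 2 and knockdown 2 were high, and the libraries numbered 3 were low in both groups.

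EEF2, the translocase gene on chromosome 19, was at 4368, 5320 and 4693 CPM in knockdown 1 to 3 and at 4990, 7962 and 4482 CPM in those labelled control 1 to 3. Its log2 difference was −0.28 (SE 0.31, 95% confidence interval −0.999 to 0.44; edgeR adjusted p = 0.926). Apart from the library labelled scrambled control 2, the groups lay within one another, and without it the difference was 0.02.

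Of the eEF1B subunits, EEF1G, on chromosome 11, followed EEF1A1 most closely. It was at 1900, 2621 and 1739 CPM in knockdown 1 to 3 and at 1995, 3453 and 1704 CPM in those labelled control 1 to 3, a log2 difference of −0.19 (SE 0.34). With the library labelled scrambled control 2 left out, that difference turned to 0.18. Its CPM was 8.69% to 9.57% of that of EEF1A1 in every library, while the level itself varied 2.03-fold for EEF1G and 2.19-fold for EEF1A1. EEF1G is the structural subunit that anchors the exchange complex.

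EEF1B2, on chromosome 2, encodes the subunit that exchanges the nucleotide. It was at 827, 986 and 525 CPM in knockdown 1 to 3 and at 662, 999 and 525 CPM in those labelled control 1 to 3. The log2 difference was 0.10 (SE 0.34), and leaving out the library labelled scrambled control 2 made it 0.39. Knockdown 2 was nearly as high as that library, and the libraries numbered 3 were the lowest.

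EEF1D, on chromosome 8, encodes the second exchange subunit and varied least of the 9 genes. Its knockdown values were 270, 237 and 227 CPM and its control values 226, 264 and 220 CPM, in the order of the labels. The highest value was 1.23-fold the lowest, and it was in knockdown 1. The log2 difference was 0.05 (SE 0.19, 95% confidence interval −0.40 to 0.50), and 0.14 with the library labelled scrambled control 2 left out. As a percentage of EEF1A1, EEF1D was at 0.664% in the library labelled scrambled control 2 and at 0.831% to 1.34% in the others, so the subunits did not keep 1 ratio to EEF1A1.

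TPT1, on chromosome 13, encodes the translationally controlled tumour protein, whose mRNA is a standard TOP mRNA. It varied most of the 9 genes, 2.58-fold between the highest and the lowest library. It was at 4389, 5475 and 2673 CPM in knockdown 1 to 3 and at 3789, 6884 and 2673 CPM in those labelled control 1 to 3. The libraries numbered 3 were lowest and nearly equal, and those numbered 2 were highest. The log2 difference was −0.09 (SE 0.43, 95% confidence interval −1.10 to 0.92), and 0.37 when the library labelled scrambled control 2 was left out. The row of the antisense gene TPT1-AS1 held 127 to 274 counts per library against 49442 to 106150 of TPT1.

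PABPC1, the main cytoplasmic poly(A)-binding protein gene, on chromosome 8, was at 2159, 1937 and 1887 CPM in knockdown 1 to 3. In the libraries labelled control 1 to 3 it was at 1888, 2906 and 1819 CPM. The other 5 libraries thus lay close together with the one labelled scrambled control 2 above them. The log2 difference was −0.14 (SE 0.27), and 0.11 without that library. PABPC3, an intronless copy of PABPC1 on chromosome 13, held 438 to 679 CPM, highest in the library labelled scrambled control 2. Reads of the 2 copies may have been split by the counting, and how far was not tested.

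EIF3E, on chromosome 8, encodes a subunit of the initiation factor eIF3. It was at 788, 1027 and 712 CPM in knockdown 1 to 3 and at 896, 1668 and 741 CPM in those labelled control 1 to 3. The log2 difference, −0.39 (SE 0.35, 95% confidence interval −1.20 to 0.43; edgeR adjusted p = 0.926), was the lowest of the 9, and it was 0.05 without the library labelled scrambled control 2. Relative to EEF1A1, EIF3E was at 3.60% to 3.93% in the knockdown and 4.07% to 4.24% in the control libraries. That was 1 of 8 such ratios, the other 7 overlapped, and it was picked out after its values were seen. Over all tested genes the ratio to EEF1A1 did not overlap between groups for 3.15%, and was lower in every knockdown library for 1.7%.

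EIF4B, on chromosome 12, encodes the cofactor of the helicase eIF4A. It was at 685, 763 and 761 CPM in knockdown 1 to 3 and at 799, 989 and 751 CPM in those labelled control 1 to 3. The library labelled scrambled control 2 was highest, and control 3 lay below 2 of the knockdown libraries. The log2 difference was −0.20 (SE 0.21, 95% confidence interval −0.70 to 0.30), and it was the only one that stayed below 0 without the library labelled scrambled control 2, at −0.07.

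**Figure D3:**
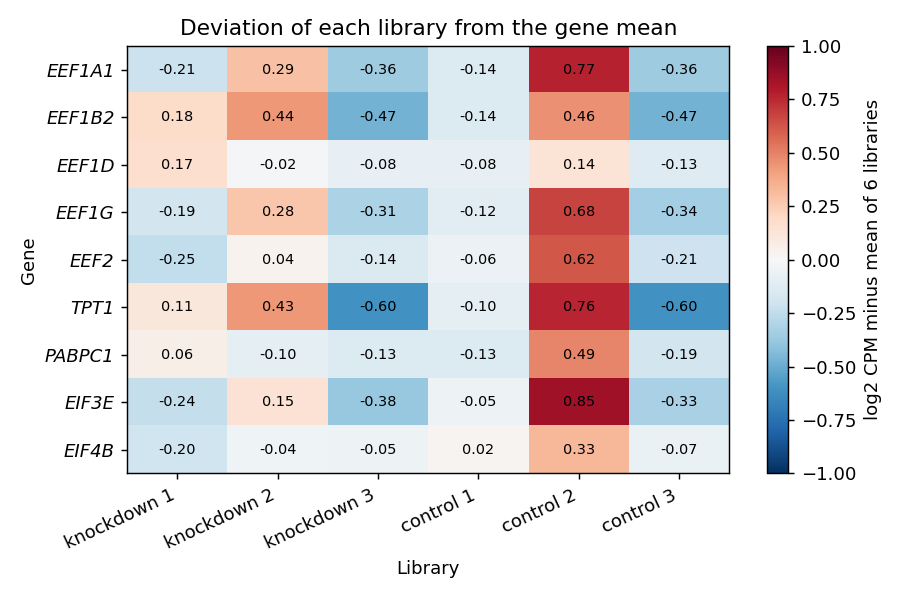
Log2 CPM of each gene in each library minus the mean of the 6 libraries, red above and blue below the mean, with the value printed in each cell. The column of the library labelled scrambled control 2 is above the mean for all 9 genes, up to 0.85 for EIF3E, and the columns of knockdown 3 and control 3 are below it for all 9.

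Libraries with the same replicate number were also set side by side. Between knockdown 3 and control 3 the members differed by −0.06 to 0.07 in log2 CPM, with 6 above 0 and 3 below. PRMT5 differed most in that pair, by −1.58. Between knockdown 1 and control 1 the range was −0.22 to 0.32, with 4 members above 0. In the pair numbered 2 all 9 were below 0, from −0.02 for EEF1B2 to −0.70 for EIF3E, and there PRMT5 was higher in the knockdown library by 0.43. Without both libraries numbered 2 the fitted differences of the members lay between −0.13 and 0.18, with 4 above 0 and 5 below.

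The library labelled scrambled control 2 was the highest of the 6 in CPM for 8 of the 9 genes, EEF1D being the exception, against 34.4% of all tested genes. Against the mean of controls 1 and 3 it was higher for all 9, by 0.24 for EEF1D to 1.11 for TPT1 in log2 CPM, with 1.02 for EEF1A1. This is 1 library, so no test was made, and EEF1A1's part in it chose the set. The size also depends on the scaling, since the TMM factor of this library was 0.881 and those of the others were 1.00 to 1.04. As shares of the counts, the ratio to controls 1 and 3 was 1.81 for TPT1, 1.71 for EEF1A1, 1.08 for EIF4B and 1.00 for EEF1D.

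Across the 6 libraries the 9 genes varied together to different degrees. Of the 36 pairs, 10 had a Pearson r above 0.9 in log2 CPM, the highest being EEF1A1 with EEF1G at 0.999. The lowest was EEF1D with EIF4B at 0.21. With the mean of the other 8, EEF1G had an r of 0.983 and EEF1A1 of 0.982, while EIF4B had 0.749 and EEF1D 0.634. These values describe 6 points that share the library labelled scrambled control 2 as their extreme. Among 4702 other genes that averaged 50 CPM or more, those most like EEF1A1 included RPL38, VCL, ADCY3 and MBOAT7, at r of 0.994 to 0.999. For the mean of the other 8 members they included TROVE2, SEC31B, RPL34 and RPL36, at 0.995 to 0.997. Ribosomal protein genes made up 20 and 27 of the 50 most alike genes.

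The cytosolic ribosomal protein genes, the core of the TOP class, had a pattern of the same kind. Of 88 tested, 81 were below 0 with all libraries, with a median log2 difference of −0.27, and 73 were above 0 without the library labelled scrambled control 2, with a median of 0.13. RPL3, the most abundant, had −0.13 (SE 0.34) with all libraries and 0.17 with that one left out. RPL36AL went from −0.57 to −0.28 in the same way, and RPL35A from −0.54 to −0.11. Against controls 1 and 3, the library labelled scrambled control 2 was higher for 85 of the 88, by a median of 1.02.

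Of 9 other TOP mRNAs outside the ribosome, 2 were above and 7 below 0 and 0 passed the test (median −0.17, and 0.08 without the library labelled scrambled control 2). GNB2L1, which encodes the ribosome-bound scaffold RACK1, was at 1451, 2026 and 1342 CPM in knockdown 1 to 3 and at 1629, 3172 and 1336 CPM in those labelled control 1 to 3. Its log2 difference was −0.35 (SE 0.38), and 0.12 with the library labelled scrambled control 2 left out. VIM, the vimentin gene, had a log2 difference of −0.62 (SE 0.30) and −0.29 without the library labelled scrambled control 2. HNRNPA1 (log2 difference −0.17, and −0.38 with that library left out), an RNA-binding protein gene also counted in this class, went the other way in that library. It was at 957 CPM there and at 1474 and 1766 CPM in controls 1 and 3. EEF1A2, the eEF1A form of muscle and nerve, was at 120 CPM in the one labelled scrambled control 2 and at 3.41 to 31.2 CPM in the other 5. Its log2 difference was −1.45 (SE 1.15), and 0.23 without the library labelled scrambled control 2.

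**Figure D4:**
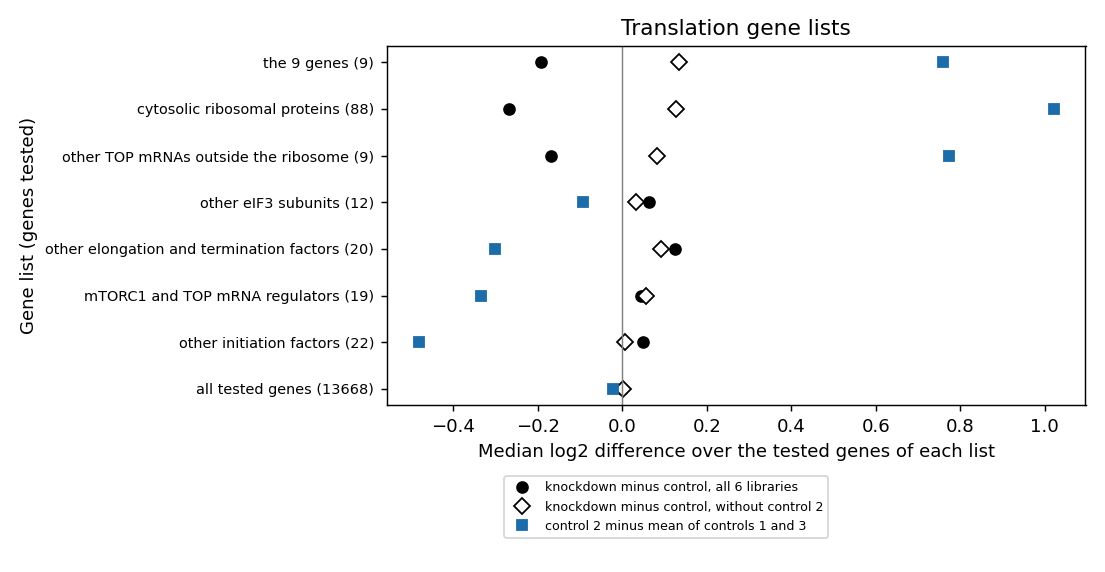
Median log2 difference over the tested genes of each list (number tested in brackets): knockdown minus control with all libraries (filled circles) and without the library labelled scrambled control 2 (diamonds), and that library minus the mean of controls 1 and 3 (blue squares). The 9 genes, the ribosomal proteins and the other TOP mRNAs have blue squares at 0.76 to 1.02, and the other initiation factors have theirs at −0.48.

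Most translation factor genes outside the 9 lay lower, not higher, in the library labelled scrambled control 2. It was higher than controls 1 and 3 for 6 of 22 other initiation factors (median −0.48), 6 of 12 other eIF3 subunits (median −0.09) and 8 of 20 other elongation and termination factors (median −0.30). For all tested genes the median was −0.02, and 6702 of 13668 were higher. Of 665 tested genes with a tract at a RefSeq start, ribosomal proteins and members apart, 382 were higher, with a median of 0.14. The larger medians of the TOP lists were thus not shared by all genes with such a start. EIF5A, the factor that relieves stalled ribosomes, was at 139 CPM there and at 366 and 466 CPM in controls 1 and 3. VARS, the valyl-tRNA synthetase that binds the eEF1 complex, was at 123 CPM there and at 297 and 451 CPM. EEF2K, the kinase that inactivates eEF2, was highest there, at 87.4 CPM against 57.2 and 49.1 CPM.

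In the comparison of knockdown with control, 15 of the 20 other elongation and termination factors were above 0 and 5 below, and 0 passed (median 0.12). EIF5A and VARS had log2 differences of 0.44 (SE 0.42) and 0.46 (SE 0.44), and 0.08 and 0.10 without the library labelled scrambled control 2. EEF2K and DHPS, the enzyme that starts the hypusine modification of eIF5A, had −0.50 (SE 0.27) and −0.42 (SE 0.25), and −0.22 and −0.18 with that library left out. Of the 12 other eIF3 subunits, 7 were above 0 and 5 below (median 0.06), and 0 passed. EIF3C, which encodes a core subunit, was the only one of the 12 whose groups did not overlap, against 6.24% of all tested genes. It was at 1678, 1654 and 1278 CPM in knockdown 1 to 3 and at 1168, 891 and 1271 CPM in those labelled control 1 to 3. The groups were nearest in the pair numbered 3. Its log2 difference was 0.47 (SE 0.25), and 0.34 with the library labelled scrambled control 2 left out, and its near copy EIF3CL can share reads with it. EIF3A had 0.25 with all libraries and 0.04 with that one left out, and EIF3L had −0.37 and −0.19.

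Of the 22 other initiation factors, 12 were above 0 and 10 below, and 0 passed (median 0.05). EIF4G2 and EIF4A1 had log2 differences of −0.02 (SE 0.26) and 0.08 (SE 0.34), and both were at −0.15 when the library labelled scrambled control 2 was left out. EIF4E, the cap-binding protein gene, had 0.42 (SE 0.26) and EIF6, an anti-association factor of the large subunit, 0.47 (SE 0.35), and they had 0.26 and 0.22 with that library left out. Among 6 tested poly(A)-binding protein and partner genes, 3 were above and 3 below 0, PABPC4 at 0.31 and PABPC3 at −0.16. Leaving that library out put 5 above and 1 below, with PABPC4 at 0.13 and PABPC3 at 0.07. Of 19 mTORC1 and TOP mRNA regulators, 13 were above 0 and 0 passed after adjustment (median 0.04). MLST8, an mTORC1 subunit gene, was at 89.2, 76.5 and 43.5 CPM in knockdown 1 to 3 and at 48.6, 28.99 and 43.5 CPM in those labelled control 1 to 3. Its log2 difference of 0.79 (SE 0.33) had an edgeR adjusted p of 0.926. EIF4EBP1, the mTORC1-controlled inhibitor of eIF4E, had 0.80 (SE 0.35), LARP1 0.27 (SE 0.28) and EIF4EBP2 −0.17 (SE 0.22). With the library labelled scrambled control 2 left out, MLST8 had 0.60, EIF4EBP1 0.55, LARP1 0.06 and EIF4EBP2 −0.19. For MLST8, EIF4EBP1, EIF4E, EIF6 and VARS alike, the library labelled scrambled control 2 held the lowest of the 6 values.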

How the data were processed

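The authors deposited, for each library, a table of estimated counts by gene that had not been normalized. In the submitters' processing notes stand hg19, edgeR, TopHat2 (version 2) and CASAVA 1.9, without their roles. How reads were counted, against which annotation and with which strand setting is not stated in the labels, so overlapping and near-identical genes can share reads. Of the values, 40.3% to 42.3% were whole (tolerance 1e-06), and all were rounded for the count models. Shares used the unrounded counts.

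Genes kept by filterByExpr (minimum count 10) were fitted with edgeR 4.0.16 in R 4.3.3 (TMM, glmQLFit, glmQLFTest, group only, two-sided), with DESeq2 1.42.0 and limma 3.58.1 as alternatives. SEs and intervals come from that fit, and a prior count of 2 entered log2 CPM. On simulated data for this comparison over 13535 genes, it found 2% of the changes of 2-fold and 82% of those of 4-fold, then 96% at 8-fold and 100% at 16-fold, and made 6 false calls. An exact test of 3 against 3 libraries cannot go below p = 0.1, so single values were not tested.

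The members and lists were chosen with earlier results of these data known. The genes named from each list were the 2 with the highest mean CPM and the 2 with the smallest p (of the ribosomal proteins, 1 and 2). EEF1A2, EIF3F and EIF3H stand in more than 1 list. Nothing in the labels says that replicates were separate cultures, so p-values measure only the spread between these libraries. Titles number both groups 1 to 3. Deviations from the group means correlated at 0.127, 0.394 and 0.566 between same-numbered libraries. Knockdown 2 with control 1 had 0.164, above the value of the pair numbered 1. The numbers were used as pairs only for the side-by-side values and the replicate block, and the main fit used the group only. The pairs follow the numbers in the titles, and the labels do not say that same-numbered libraries were made together. Start windows were matched by symbol for 6 of the 9 members. A few genes that the naming rule or a marker list would have named are not reported here.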

Additional observations from a re-analysis of the deposited data

How the results depend on the processing

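Over 15 alternatives (RLE, upper quartile and total-count scaling, DESeq2, limma-voom, 2 other count filters, a replicate block, each library left out, and both libraries numbered 2 left out), 0 genes and 0 members were called. With the replicate number as a block 0 members were called and 7 of 9 were below 0, with a smallest edgeR adjusted p of 0.709, and it changed no call. The smallest adjusted p of a member in any alternative was 0.534. Scaling and filters kept every member's direction. The number of members below 0 was 1 to 9 when single libraries were left out, 1 when that was the library labelled scrambled control 2 and 9 when it was control 3, and the difference in summed share was −0.891 to 0.345 percentage points. Directions that turned were those of EEF1A1 (leave-one-out range −0.46 to 0.18), EEF1B2 (−0.11 to 0.39), EEF1D (−0.036 to 0.14, and −0.0021 with control 3 left out), EEF1G (−0.39 to 0.18), EEF2 (−0.43 to 0.020), TPT1 (−0.35 to 0.37), PABPC1 (−0.26 to 0.11) and EIF3E (−0.60 to 0.045). Without both libraries numbered 2, TPT1 was at 0.13 and PABPC1 at 0.13. The cause was not tested. The rarest member, EEF1D, had a binomial counting error of at most 3.15% of its share. That figure takes each read as a separate molecule, and the part of depth was not tested.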
